A study of Homo sapiens with 8 samples.

Results

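Doxycycline at 1 ug/ml for 48 h was compared with no doxycycline in K562, a human erythroleukaemia cell line that keeps features of early red cell precursors. The comparison took all 8 libraries of the study, chosen by their titles: 4 marked as given doxycycline against 4 marked as not given it, with the line as a covariate. Each side held 2 libraries, replicates 1 and 2, of each of 2 lines. Both lines carried an SF3B1 transgene under a doxycycline-inducible promoter, encoding either SF3B1 with the K700E substitution (K700E_induced and K700E_uninduced) or the wild-type protein (WT_induced and WT_uninduced). All cells grew in RPMI-1640 with 10% fetal bovine serum. The contrast therefore holds the drug and the transgene's induction together, and these cannot be told apart, since no library came from cells without a transgene. Nothing in the labels says that replicates were separate cultures, so p-values measure the spread between these libraries, which may be technical. RNA was sequenced after depletion of ribosomal RNA, and the deposited values are FPKM, fragments scaled by transcript length and by the number of mapped fragments. Levels below are these FPKM after a scaling between libraries. Means with and without doxycycline are given in that order, ± is the SD over 4 libraries unless named as a standard error (SE), and differences are in log2 units, doxycycline minus none.

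Doxycycline is a tetracycline antibiotic that blocks protein synthesis on bacterial ribosomes and, at higher exposure, on the related ribosomes of mitochondria. Mammalian cells with impaired mitochondrial protein synthesis are known to switch on the integrated stress response, in which the transcription factor ATF4 raises genes of amino acid synthesis, amino acid import and tRNA charging. Tetracyclines also bind metal ions, and a shift from respiration towards glycolysis has been described in other cells given doxycycline. Lists of genes for these pathways are described after the single genes that stood out, together with lists for the erythroid state, cell division, stress and splicing.

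The libraries matched the label of an erythroid line. All 9 defining erythroid markers, among them GATA1, TAL1, KLF1 and the fetal and embryonic globins, were above 0 in all 8 libraries, with summed levels of 6178 to 10250 FPKM with doxycycline and 6576 to 13600 without. The markers CD14 and MPO of myeloid cells, PF4, PPBP and GP9 of megakaryocytes, MS4A1 of B cells and COL3A1 of stroma were listed at 0 in every library. LYZ, ITGA2B, CD3D, PTPRC, EPCAM and COL1A1 were above 0 in all 8 libraries. The 5 lymphoid markers summed to 12.7 to 38.6 FPKM with doxycycline and 33.3 to 71.2 without, most of it CD3D and PTPRC. Read totals are not used here, but mean coverage per unit of FPKM ran from 3.29 to 4.77, and the median half-width of the deposited interval of well-measured transcripts from 6.16% to 6.94% of the value. In pairs of libraries, Pearson's r of log2 values over 8760 genes above 0 everywhere was 0.807 to 0.872. Its mean was 0.839 both within and between treatments, a description with no test.

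SF3B1 itself, the gene of the transgene, was measured first. Four-library values are given throughout in the order K700E replicates 1 and 2, then WT replicates 1 and 2. SF3B1 stood at 28.96, 39.4, 36.9 and 27.2 FPKM with doxycycline and at 33.6, 31.02, 38.1 and 31.7 FPKM without it. The untreated values lay within the range of the treated ones, and the highest and the lowest of the treated values were the K700E and the WT library numbered 2. Means were 33.1 ± 5.97 FPKM with doxycycline and 33.6 ± 3.197 without (SD, n = 4), a log2 difference of -0.033 with a 95% interval of -0.59 to 0.53 in limma. An exact permutation test, two-sided, gave p = 0.857, where 4 against 4 can give no p below 0.0286. No rise of total SF3B1 RNA was measured, and in K700E replicate 1 and both WT replicates the value was lower than in the untreated library of the same number. These values thus do not show the rise that the label of induction would give if reads of the transgene are part of them. Whether they are is not stated in the labels, and induced is used below as the labels' word.

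**Figure D1:**
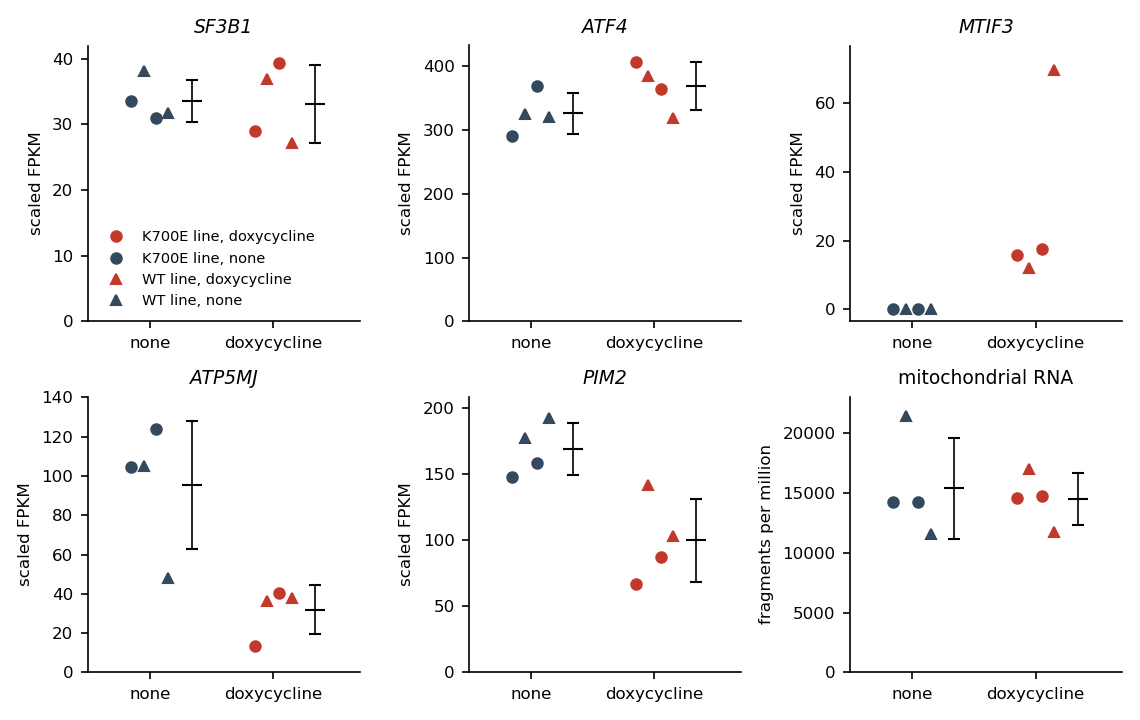
Levels in each of the 8 libraries without and with doxycycline, in scaled FPKM, or in FPKM times kilobases for plus-strand RNA of the mitochondrial genome. Circles are the K700E line and triangles the WT line, and bars are the mean and SD of 4 libraries, left out for MTIF3, which was listed at 0 in the 4 untreated libraries. SF3B1, ATF4 and mitochondrial RNA overlap between the sides, while ATP5MJ, PIM2 and MTIF3 do not.

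No gene passed the test of doxycycline against none. Of 11335 genes with a mean of at least 1 FPKM, 0 had an adjusted p under 0.05 (0%) in limma on log2(FPKM + 0.5) with Benjamini-Hochberg adjustment. An unadjusted p under 0.05 was found for 518 genes (4.57%), 252 of them higher and 266 lower with doxycycline. All 4 treated libraries lay above all 4 untreated ones for 139 genes (1.23%), and below them for 150 genes (1.32%). The smallest adjusted p was 0.170, for MTIF3, and the next was 0.954. Fold changes on this scale understate the change of low genes.

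The 2 lines share no library, so their differences could be set side by side. The sign of the difference was the same in both lines for 5655 of the 11335 genes (49.9%), and Pearson's r of the 2 log2 differences across genes was 0.0094. The 1436 genes with a mean of at least 50 FPKM, no 0 in any library and a transcript of 300 nt or more had the same sign in 795 cases (55.4%), with an r of 0.0859. Without the conditions on zeros and length, the 1523 genes at 50 FPKM or more had the same sign in 817 cases (53.6%). Their r was -0.0562, so the sign of r at high levels depended on the filter. Genes are not independent replicates, and these values are descriptions. The precision behind them differed with level. The median standard error of the log2 difference was 0.531 over all genes tested and 0.257 over the 1523 genes at 50 FPKM or more. Of the 1436 genes, 17 differed by more than 1 log2 unit and 38 did not overlap between the sides, 17 higher and 21 lower. Over all 11335 genes, 1818 differed by more than 1 log2 unit. There, 139 (1.23%) lay higher and 150 (1.32%) lower without overlap.

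**Figure D2:**
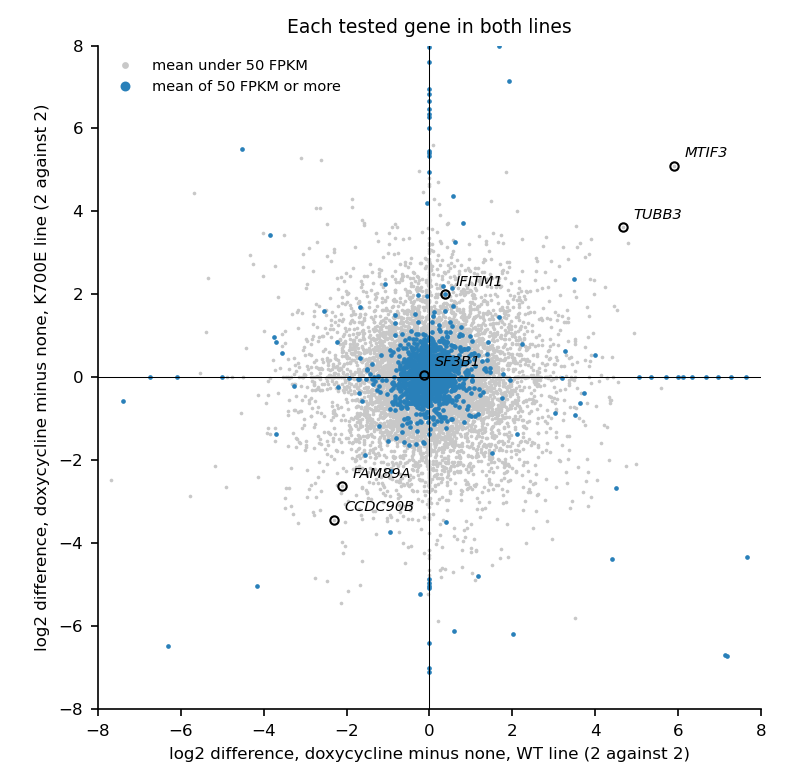
Log2 difference between doxycycline and none in the WT line (x axis) and in the K700E line (y axis), each 2 libraries against 2, for the 11335 genes tested. Genes at 50 FPKM or more are blue, 6 genes lie beyond the axes, and the cloud shows no slope, with r = 0.0094.

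MTIF3, which encodes a mitochondrial translation initiation factor and lies at chr13:28009776-28024739, minus strand (hg19), had the smallest p of all genes. Its level was 15.96, 17.5, 12.1 and 69.6 FPKM with doxycycline, and it was listed at 0 in all 4 untreated libraries, so no fold is given. The unadjusted limma p was 1.50e-05 and the adjusted p 0.170. In all 4 untreated libraries the reference transcripts of MTIF3 stood in a locus that the assembly had numbered but for which every transcript was listed at 0. Between 594 and 642 loci per library were listed in this way, 594 to 639 in the treated and 596 to 642 in the untreated libraries. The 4 treated libraries placed their reads on 5 forms of the transcript, 3 of them reference forms, and a different form led in each of the 4. In WT_induced replicate 1 only an assembled form was above 0, at 11.97 FPKM before scaling. In WT_induced replicate 2 an assembled form held 55.39 FPKM and a reference form 14.6 FPKM. The 3′ end of MTIF3 overlaps by 71 bp the end of GTF3A, which codes for a transcription factor of RNA polymerase III on the other strand. With numbered loci at 0 taken as missing, MTIF3 left the comparison and the smallest adjusted p became 0.951, for FAM89A. With reference transcripts alone the smallest adjusted p in limma was 0.928, for CCDC106. Whether the zeros are absence of RNA or of an estimate was not tested.

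CISD3, an iron-sulfur protein of the mitochondrial matrix, was at 2.69, 3.54, 3.61 and 5.74 FPKM with doxycycline and also listed at 0 in the 4 untreated libraries. In the other direction, NIPSNAP3B was at 3.11, 2.39, 2.21 and 4.59 FPKM and the keratin gene KRT79 at 3.48, 2.94, 1.89 and 5.86 FPKM without doxycycline, and both were listed at 0 in the 4 treated libraries. In all, 5 genes were listed at 0 in every untreated library alone and 3 in every treated library alone. CISD3, NIPSNAP3B and KRT79 were chosen after their values were seen, and limma gave each an adjusted p of 0.954.

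Because nothing was called, the genes named next are the 12 in each direction with the smallest unadjusted p among those above 0 everywhere, with a mean of at least 5 FPKM, a transcript of 300 nt or more, the same sign in both lines and no overlap between the sides. The rule picks them for standing apart, so that alone is no finding. TUBB3, a beta tubulin best known from neurons, was at 32.5, 22.8, 14.6 and 12.2 FPKM with doxycycline and at 9.29, 0.0159, 0.0143 and 0.0795 FPKM without it. The untreated K700E replicate 1 stood apart from the other 3 untreated libraries, which were close to 0. The log2 difference was 4.15 ± 0.86 (SE), with an unadjusted p of 0.000852 in limma. PLEKHO1, an adaptor protein of the cell membrane, was tighter, at 12.8, 16.3, 10.99 and 12.1 FPKM against 3.41, 4.92, 3.02 and 1.54 FPKM. TOMM7, a small subunit of the import channel in the outer mitochondrial membrane, was at 76.8, 69.3, 44.4 and 50.1 FPKM with doxycycline and at 29.5, 34.6, 18.6 and 5.29 FPKM without. HSF2, a heat shock transcription factor, had means of 14.96 ± 6.42 against 3.68 ± 1.35 FPKM. SERTAD3, a transcriptional regulator, had means of 30.7 ± 11.5 against 12.8 ± 1.99 FPKM, and the pseudogene GUSBP1 of 48.5 ± 13.3 against 19.2 ± 7.78 FPKM. For the zinc finger genes ZNF710 and ZNF429 the means were 12.2 ± 5.03 against 2.84 ± 1.303 and 15.7 ± 2.58 against 4.05 ± 3.35 FPKM.

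The other 4 of the higher genes, and ZNF710 above, moved most when transcripts assembled in each library were left out. SDHAF2, an assembly factor of succinate dehydrogenase, was at 26.5, 36.00, 14.97 and 18.2 FPKM with doxycycline and at 6.58, 6.61, 8.11 and 9.04 FPKM without. With reference transcripts alone its log2 difference went from 1.53 to -0.16, the one change of sign among these 24 genes over 27 alternative settings. FAHD2B had means of 30.7 ± 15.5 against 7.52 ± 3.78 FPKM, LY6G5B of 21.9 ± 6.18 against 6.34 ± 2.44 FPKM and PRR22 of 27.4 ± 35.01 against 2.82 ± 2.26 FPKM, and FAHD2B has a near-identical copy with which it may share reads. PRR22 owed much of its mean to a single library, at 79.8 FPKM in K700E_induced replicate 1. Reference transcripts alone gave 0.53, 0.54 and 0.52 log2 units for these 3 genes and 0.62 for ZNF710, against 1.95, 1.72, 2.69 and 1.96 with all transcripts.

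**Figure D3:**
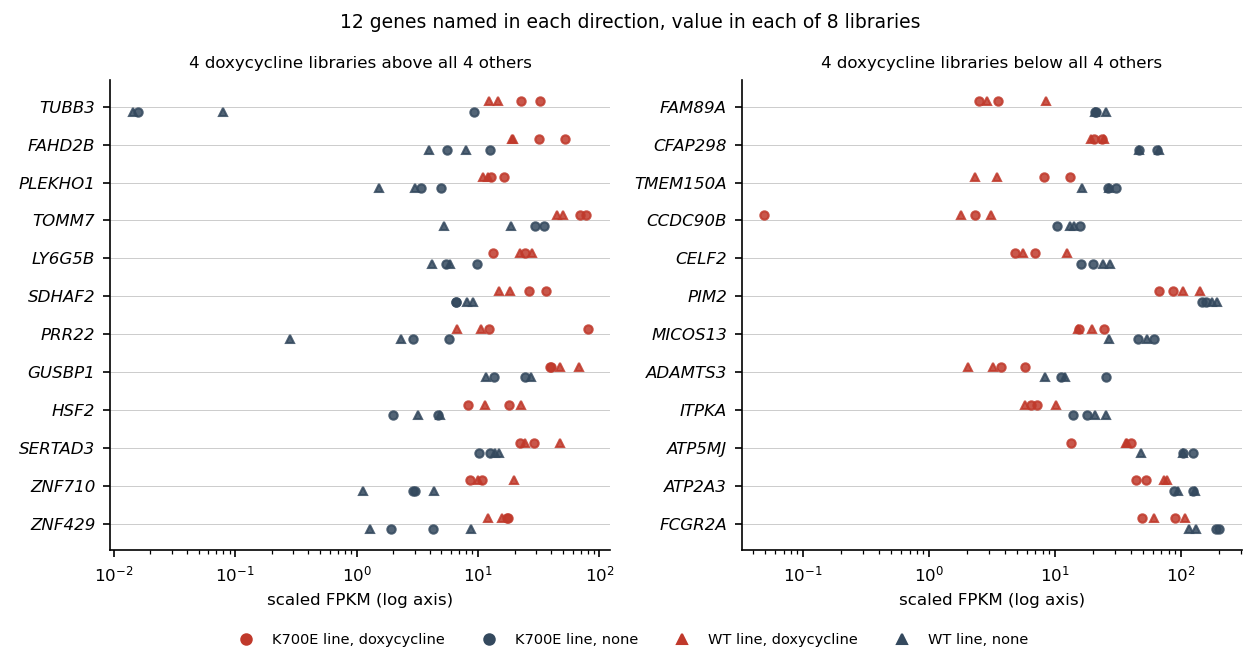
Scaled FPKM on a log axis in each library for the 12 genes named in each direction, red with doxycycline and dark blue without, circles for the K700E line and triangles for the WT line. The 4 red and 4 blue points of a gene do not overlap, which is how the genes were chosen, and TUBB3 and CCDC90B hold single points far from the others.

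Among the lower genes, FAM89A, whose function is little known, stood at 3.55, 2.498, 2.87 and 8.49 FPKM with doxycycline and at 21.2, 20.8, 20.8 and 25.6 FPKM without. The untreated values lay close together and every treated value was far below them, at a log2 difference of -2.36 ± 0.43 (SE) and an unadjusted limma p of 0.000356. The gene lies at chr1:231154704-231175995, minus strand, and the microRNA gene MIR1182 lies within it on the same strand. CFAP298, a protein needed for the assembly of motile cilia, was at 23.7, 20.4, 24.5 and 19.2 FPKM against 46.4, 64.98, 67.1 and 46.5 FPKM. The files list CFAP298 as C21orf59. TMEM150A, a membrane protein, had means of 6.78 ± 4.98 against 25.1 ± 5.94 FPKM, and CCDC90B, a coiled-coil protein of mitochondria, of 1.81 ± 1.28 against 13.4 ± 2.25 FPKM. The RNA-binding splicing regulator CELF2 stood at 6.96, 4.82, 12.5 and 5.55 FPKM with doxycycline and at 16.1, 20.2, 24.3 and 27.4 FPKM without. ADAMTS3, a procollagen-processing protease, and ITPKA, an inositol trisphosphate kinase, had means of 3.67 ± 1.55 against 14.2 ± 7.69 and 7.39 ± 1.92 against 19.6 ± 4.88 FPKM. Reference transcripts alone left TMEM150A at -0.99 log2 units in place of -2.05.

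A pair of small mitochondrial proteins were among the lower genes as well. MICOS13 (C19orf70 in the files), a subunit of the complex that shapes the inner mitochondrial membrane, was at 15.6, 24.5, 15.1 and 19.8 FPKM with doxycycline and at 61.5, 45.8, 53.6 and 26.6 FPKM without. ATP5MJ (C14orf2 in the files), a small subunit of ATP synthase, was at 13.4, 40.4, 36.4 and 37.6 FPKM against 105, 124, 105 and 48.3 FPKM. In both, the untreated WT replicate 2 was the library nearest to the treated ones. MICOS13 overlaps HSD11B1L on the other strand by 136 bp, and the labels do not say that reads were counted by strand.

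Genes with high levels carry the smallest errors, so genes with the smallest p at 50 FPKM or more were taken after the values were seen, under the same conditions on zeros, length and overlap. PIM2, a serine/threonine kinase that promotes survival of blood cells, stood at 66.9, 87.4, 142 and 103 FPKM with doxycycline and at 148, 159, 177 and 192 FPKM without. The highest treated value, WT replicate 1, lay just under the lowest untreated one, and the log2 difference was -0.80 with a 95% interval of -1.25 to -0.36. ATP2A3, a calcium pump of the endoplasmic reticulum, had means of 61.99 ± 15.97 FPKM with doxycycline and 109 ± 20.4 without (SD, n = 4). FCGR2A, a receptor for IgG, had means of 77.00 ± 26.8 FPKM with doxycycline and 160.1 ± 41.6 without (SD, n = 4), and a log2 difference of -1.08 that was -0.51 with reference transcripts alone. HNRNPA2B1, an RNA-binding splicing regulator, was at 214, 307, 173 and 214 FPKM against 132, 125, 159 and 129 FPKM, and the sides did not overlap. With reference transcripts alone its log2 difference was -0.93 in place of 0.71. ATP5MJ, given above, is the fifth of these genes. PIM2, ATP2A3, FCGR2A and ATP5MJ are also among the 12 lower genes of the earlier rule. Each of the 5 had an adjusted p of 0.954 in limma.

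Gene lists are described by counts and medians beside those of all 11335 genes, of which 5649 were higher and 5686 lower in mean with doxycycline, at a median log2 difference of -0.0016. None of the lists held a gene past the test, so the values below are levels and differences, not changes. Counts at an unadjusted p under 0.05 are to be read against the 4.57% of all genes. A lack of overlap is to be read against the 1.23% of all genes that lay higher and the 1.32% that lay lower without overlap. Up to 3 members with the smallest p are named for each list, and a few regulators were always named. Their adjusted p in limma was 0.954 or more except for MTIF3. Where reads were not counted by strand, antisense genes could share reads with SLC7A11, PITRM1, CELF2, AIMP1, ACAT2, TIMP1, RPL10, TNFAIP3, KRT8 and KRT18. These overlap genes on the other strand by 14084, 7029, 33946, 1095, 558, 4501, 1102, 1046, 996 and 996 bp, and shorter overlaps and those with genes listed at several copies are not given.

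The integrated stress response, 27 of 29 genes tested, was divided into 12 higher and 15 lower, with a median of -0.10 and 0 genes at an unadjusted p under 0.05. ATF4, the transcription factor at its centre, was at 407, 365, 385 and 319 FPKM with doxycycline and at 291, 369, 325 and 321 FPKM without. These overlap, at a log2 difference of 0.18 with a 95% interval of -0.18 to 0.53. ASNS, the asparagine synthetase gene and a standard ATF4 target, ran from 119 to 278 FPKM with doxycycline and 138 to 266 without, and TRIB3, a pseudokinase induced by ATF4, from 98.9 to 181 FPKM with doxycycline and 126 to 181 without. For ASNS the interval of the log2 difference was -0.55 to 0.27 and for TRIB3 -0.64 to 0.37. DDIT3, which encodes the stress factor CHOP, had a level above 0 in WT_uninduced replicate 1 alone, at 56.04 FPKM. The members with the smallest p were the translation repressor gene EIF4EBP1, with means of 274 ± 36.3 against 212 ± 42.6 FPKM, the cystine importer gene SLC7A11 with 11.2 ± 2.87 against 19.3 ± 7.47 FPKM and HERPUD1, of protein quality control in the endoplasmic reticulum, with 15.7 ± 4.46 against 22.6 ± 7.48 FPKM.

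Serine and folate metabolism, which ATF4 also feeds, had 10 members higher and 10 lower of 20 tested, at a median of 0.0078. SHMT2, the mitochondrial serine hydroxymethyltransferase, was at 127, 123, 123 and 76.5 FPKM with doxycycline and at 185, 148, 156 and 146 FPKM without, and these did not overlap (unadjusted p = 0.0298 in limma). PHGDH, the first enzyme of serine synthesis, had means of 51.9 ± 3.43 against 89.3 ± 41.4 FPKM, and PSAT1, the second, of 61.3 ± 15.3 against 80.8 ± 12.96 FPKM. PSAT1 differed by 0.012 log2 units in the K700E line alone, and the list's median was -0.15 with reference transcripts alone. Cytosolic tRNA synthetases were 9 higher and 12 lower, with members between -0.74 and 0.26 log2 units. AARS1, the alanyl-tRNA synthetase, had means of 153 ± 25.4 against 126 ± 5.93 FPKM, EPRS1, which charges glutamate and proline tRNAs, of 84.1 ± 3.702 against 102 ± 10.5 FPKM, and AIMP1, a scaffold of the synthetase complex, of 8.302 ± 4.297 against 13.6 ± 3.76 FPKM. Reference transcripts alone gave AARS1 and EPRS1 the other sign.

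Genes for most proteins of the mitochondrial ribosome, the known target of the drug in human cells, were measured as RNA. Of 82 mitochondrial ribosomal protein genes, 33 were higher and 49 lower, at a median of -0.087 (K700E line -0.090, WT line -0.020) and of -0.042 with reference transcripts alone. Before adjustment, 2 higher and 4 lower genes had a p under 0.05. MRPL47 was at 12.4, 12.4, 16.4 and 19.5 FPKM with doxycycline and 26.9, 30.3, 24.7 and 58.2 FPKM without, with no overlap. MRPL15, also of the large subunit, did not overlap either, with ranges of 8.63 to 27.4 FPKM with doxycycline and 31.5 to 42.1 without. MRPS9, of the small subunit, had means of 9.695 ± 6.16 against 29.6 ± 13.7 FPKM and overlapped.

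Of 29 factors of mitochondrial translation and transcription, 14 were higher and 15 lower, at a median of -0.087 (-0.17 with reference transcripts alone). After MTIF3 came GUF1, a back-translocating elongation factor, with means of 9.17 ± 4.86 against 17.3 ± 3.85 FPKM. MTRF1, a release factor, stood at 0.358, 0.038, 6.08 and 0 FPKM with doxycycline and 3.87, 52.01, 3.202 and 1.52 FPKM without. TUFM, the mitochondrial elongation factor Tu, was at 207, 186, 159 and 185 FPKM with doxycycline and 113, 124, 159 and 244 FPKM without. Mitochondrial tRNA synthetases were 12 higher and 10 lower at a median of 0.048 (0.19 with reference transcripts alone). The 3 with the smallest p were GATB (PET112 in the files), of the enzyme that makes mitochondrial glutaminyl-tRNA, with means of 11.7 ± 6.97 against 3.896 ± 3.81 FPKM, CARS2 with 6.28 ± 2.83 against 19.03 ± 16.1 FPKM and PARS2 with 8.43 ± 1.76 against 4.75 ± 3.28 FPKM.

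The mitochondrial chaperones and proteases, which mark the mitochondrial unfolded protein response, had 14 of 24 higher, at a median of 0.060. HSPD1, the matrix chaperonin, was at 184, 119.9, 148 and 189 FPKM with doxycycline and 160.2, 127, 137 and 224 FPKM without, with an interval of -0.52 to 0.52 for the log2 difference. LONP1, the main matrix protease, had means of 88.04 ± 40.3 against 108 ± 28.9 FPKM, and its interval was -0.95 to 0.22. SPG7, a subunit of an inner membrane protease, did not overlap, at 23.96, 19.3, 18.03 and 33.5 FPKM with doxycycline and 11.3, 9.88, 5.32 and 14.3 FPKM without. CLPP, a matrix protease, had means of 106 ± 91.7 against 49.2 ± 7.87 FPKM, the first carried by 243 FPKM in K700E_induced replicate 1. PITRM1, a peptidase for presequences, had means of 19.6 ± 5.72 against 29.5 ± 12.1 FPKM.

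The 13 mRNAs of the mitochondrial genome itself had no gene values. The FPKM of assembled transcripts on the plus strand of that genome, multiplied by their length in kilobases, came to 14527, 14753, 17011 and 11691 with doxycycline. Without doxycycline it came to 14274, 14236, 21433 and 11563. WT replicate 1 was highest and WT replicate 2 lowest on both sides. The minus strand, left out of this value, came to 2401, 0, 3585 and 0 with doxycycline. Without doxycycline the minus strand came to 1975, 0, 3912 and 1008. Short transcripts were also left out, and these values were not scaled between libraries. The log2 difference of the plus strand was -0.060 and the exact two-sided permutation test gave p = 0.943 (n = 4 a side).

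Nuclear genes of the respiratory chain were 34 higher and 43 lower of 77, at a median of -0.055 (-0.0029 with reference transcripts alone). ATP5MC1, the ring subunit of ATP synthase, had means of 85.3 ± 23.9 against 142 ± 47.9 FPKM, NDUFB10, of complex I, of 82.6 ± 11.5 against 148 ± 59.6 FPKM, and COX7B, of complex IV, of 248 ± 46.6 against 169 ± 33.9 FPKM. They lay on different sides, the first 2 lower and COX7B higher with doxycycline. The tricarboxylic acid cycle had 9 higher and 11 lower of 20, led by the succinyl-CoA ligase gene SUCLG2 with means of 8.204 ± 6.04 against 30.6 ± 26.2 FPKM and PDHX, of the pyruvate dehydrogenase complex, with 7.41 ± 4.52 against 14.7 ± 4.61 FPKM.

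Genes of glycolysis lay mostly lower in mean, in both lines. Of 25 genes, 18 were lower in mean with doxycycline, at a median of -0.21, which was -0.20 in the K700E line, -0.22 in the WT line, -0.25 in the libraries numbered 1 and -0.19 in those numbered 2. Before adjustment, ALDOA and GPI had a p under 0.05. ALDOA, the aldolase gene, was at 929.6, 1183, 1012 and 1014 FPKM with doxycycline and 1386, 1452, 1046 and 1481 FPKM without. ENO1, the enolase gene, was at 591, 666, 593 and 496 FPKM against 788, 694, 631 and 737 FPKM, and GPI, which makes fructose 6-phosphate, at 79.4, 86.3, 85.3 and 127 FPKM against 109, 177, 186 and 125 FPKM. In these 3 genes the sides overlapped, by 1 untreated library for ALDOA and ENO1. Their log2 differences were -0.37, -0.28 and -0.65. HK2, the hexokinase gene that limits glycolysis in many tumours, had means of 6.67 ± 2.08 against 9.13 ± 3.38 FPKM and an interval of -1.42 to 0.58. Hypoxia targets, which share some of these genes, were 15 lower of 21, at a median of -0.23 (-0.26 in the K700E line, -0.091 in the WT line, -0.43 with reference transcripts alone). Their members with the smallest p were the repressor gene BHLHE40 with means of 42.6 ± 13.4 against 60.1 ± 12.9 FPKM, the glycolytic regulator PFKFB3 with 8.103 ± 5.37 against 3.12 ± 1.72 FPKM and the oxygen sensor EGLN1 with 4.695 ± 1.76 against 7.81 ± 2.06 FPKM.

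**Figure D4:**
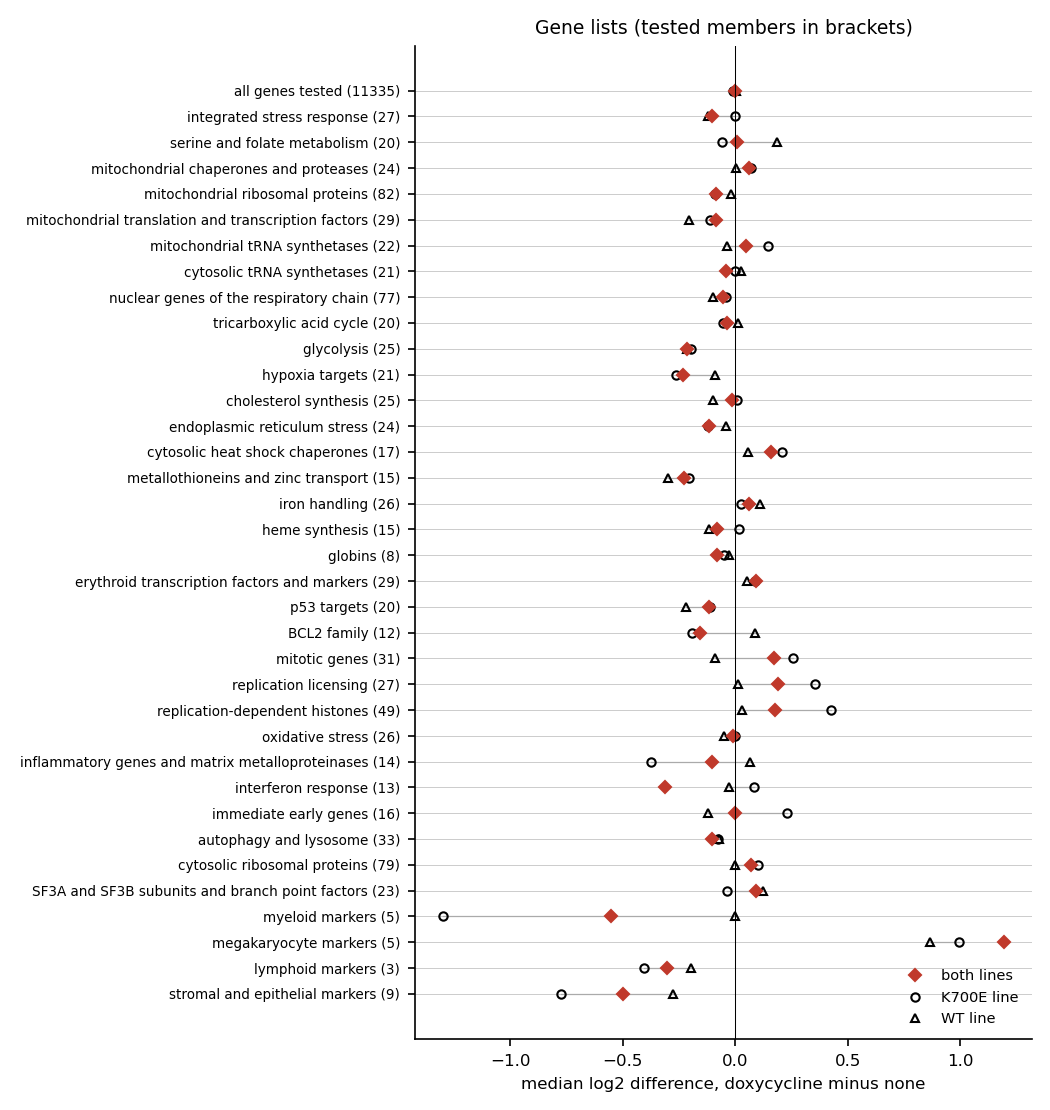
Median log2 difference between doxycycline and none over the tested members of each gene list, for both lines (red diamonds), the K700E line (circles) and the WT line (triangles). The medians of megakaryocyte markers (1.19), myeloid markers (-0.55) and stromal and epithelial markers (-0.50), of 5, 5 and 9 genes, lie farthest from 0, and glycolysis lies at -0.21 with its lines close together.

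Of the remaining metabolic lists, cholesterol synthesis had 10 higher and 15 lower of 25. ACAT2, a thiolase of the pathway's first step, was listed at 0 in both K700E libraries with doxycycline. It stood at 45.8 and 22.3 FPKM in the WT libraries with doxycycline and at 30.7, 27.6, 42.1 and 18.4 FPKM without. Its lower mean thus came from the K700E line alone. For 1 of the 2 zeros the gene stood in a numbered locus listed at 0, as MTIF3 did. Whether the ACAT2 zeros are absence of RNA or of an estimate was not tested. The lanosterol demethylase gene CYP51A1 had means of 37.5 ± 9.21 against 49.4 ± 15.5 FPKM. The kinase gene PMVK was at 0.0309, 16.4, 0.582 and 0.0825 FPKM with doxycycline and 4.77, 8.903, 8.74 and 0 FPKM without. Metallothioneins and zinc transporters, which respond to metal ions, were 4 higher and 11 lower of 15, at a median of -0.23. MT2A, a metallothionein, was listed at 0 in both K700E libraries with doxycycline and was 59.4 and 197 FPKM in the WT ones, against 26.2, 49.6, 132 and 4.91 FPKM without doxycycline. MTF1, the metal-sensing transcription factor, had means of 1.65 ± 0.604 against 8.63 ± 10.9 FPKM, the second raised by 24.9 FPKM in K700E_uninduced replicate 1, and the zinc carrier SLC30A9 of 47.8 ± 21.95 against 31.4 ± 4.93 FPKM.

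No gene of the erythroid programme passed the test. GATA1, its master transcription factor, was at 303, 294, 252 and 211 FPKM with doxycycline and 225, 294, 301 and 259.7 FPKM without, with an interval of -0.44 to 0.38 for the log2 difference. TAL1, its partner, had means of 36.96 ± 9.95 against 29.9 ± 4.46 FPKM and an interval of -0.37 to 0.91. Of 29 erythroid factors and markers 19 were higher and 10 lower, at a median of 0.091. The cofactor gene ZFPM1 had means of 11.5 ± 3.796 against 27.2 ± 14.8 FPKM and MYB, which holds precursors in division, of 93.5 ± 35.03 against 64.7 ± 19.6 FPKM. Both had the other sign with reference transcripts alone, as had TAL1.

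Globins overlapped between the sides. The fetal globin gene HBG1 was at 1764, 2579, 1144 and 1922 FPKM with doxycycline and 2323, 3340.0, 1041 and 2123 FPKM without, and its near-identical copy HBG2, with which reads may be shared, at 2811, 3311, 1547 and 2724 and 3809, 4972, 1534 and 2884 FPKM. In both genes WT replicate 1 was the lowest of its side. The embryonic globin gene HBE1 ran from 349 to 1407 FPKM with doxycycline and from 279 to 2351 without. Summed over the list, globins came to 9993, 16010, 9865 and 8232 FPKM with doxycycline and to 11740, 18480, 10290 and 8625 FPKM without. The sum was lower with doxycycline in each of the 4 pairs of the same line and number, by less than the libraries of a side differed, and this was noticed after the values were seen. HBQ1, the theta globin, had means of 60.98 ± 63.96 against 33.1 ± 6.01 FPKM, carried by 156 FPKM in 1 library. Heme synthesis was 7 higher and 8 lower of 15. ALAS2, its erythroid first enzyme, had means of 38.3 ± 20.4 against 30.1 ± 12.3 FPKM and an interval of -0.46 to 1.00. ALAS1, the first enzyme in other tissues, had means of 5.62 ± 2.25 against 9.14 ± 2.73 FPKM and CPOX of 19.6 ± 4.04 against 16.03 ± 8.85 FPKM. Iron handling was 14 higher and 12 lower of 26. The ferritin light chain gene FTL had means of 2374 ± 432 against 2785 ± 164 FPKM, the iron importer SLC11A2 of 16.1 ± 4.97 against 9.92 ± 4.44 FPKM and the mitochondrial iron carrier SLC25A37 of 106 ± 64.9 against 176 ± 53.9 FPKM, with a log2 difference of -0.88 that became 3.76 with reference transcripts alone.

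Genes of DNA replication lay in both directions. Of 27 licensing and replication genes, 18 were higher and 9 lower, at a median of 0.19, but the median was 0.36 in the K700E line and 0.012 in the WT line, and 0.045 with reference transcripts alone. MCM4, a subunit of the replicative helicase, was at 59.4, 67.4, 73.5 and 95.9 FPKM with doxycycline and 55.2, 41.05, 45.99 and 57.2 FPKM without, with no overlap. PCNA, the sliding clamp, was at 94.3, 142, 60.4 and 90.99 FPKM against 52.8, 62.4, 38.9 and 51.8 FPKM, and its log2 difference of 0.86 became -0.92 with reference transcripts alone. An antisense gene, PCNA-AS1, overlaps it by 384 bp. GINS2, of the helicase complex, had means of 43.2 ± 14.7 against 23.2 ± 4.31 FPKM. Mitotic genes were 21 higher and 10 lower of 31, with a median of 0.26 in the K700E line and -0.090 in the WT line, so the sign was not shared. The median over both lines was 0.17, and 0.085 with reference transcripts alone. NUSAP1, a spindle protein, had means of 59.6 ± 7.72 against 43.8 ± 14.4 FPKM, the checkpoint kinase BUB1B of 26.6 ± 5.56 against 17.5 ± 4.47 FPKM and CENPA, the centromeric histone, of 19.5 ± 3.22 against 12.8 ± 5.64 FPKM.

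Replication-dependent histones, whose mRNAs lack poly(A) tails and are kept by ribosomal RNA depletion, were 34 higher and 15 lower of 49, with medians of 0.43 in the K700E line and 0.032 in the WT line. Before adjustment, 6 higher and 1 lower genes had a p under 0.05. H1-3 (HIST1H1D in the files), a linker histone, was at 157, 95.9, 78.7 and 39.7 FPKM with doxycycline and 50.4, 39.3, 24.2 and 12.3 FPKM without, and the sides overlapped by 1 library each. H3C14 (HIST2H3C) had means of 928 ± 133 against 639.7 ± 146 FPKM, and H4C9 was at 0, 45.4, 0 and 0 FPKM with doxycycline and 20.99, 32.4, 57.6 and 182 FPKM without. These genes have near-identical copies, between which the authors' counting could have split reads.

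K562 is known to lack functional p53. Among p53 targets 8 were higher and 12 lower of 20. PLK3, a stress kinase, had means of 17.5 ± 9.59 against 5.59 ± 2.904 FPKM, GADD45A of 62.6 ± 27.98 against 76.6 ± 12.1 FPKM and the cell cycle inhibitor CDKN1A of 22.4 ± 17.6 against 36.5 ± 20.8 FPKM. Of 12 BCL2 family genes 5 were higher and 7 lower. MCL1, which protects from apoptosis, was at 47.9, 34.5, 52.6 and 46.9 FPKM with doxycycline and 60.6, 76.00, 58.2 and 110.1 FPKM without, with no overlap. PMAIP1, which antagonises it, had means of 11.5 ± 3.15 against 3.99 ± 4.59 FPKM and overlapped. BCL2L2, another protective member that shares its start with a read-through gene, was listed at 0 in all 4 untreated libraries and in K700E_induced replicate 2 and stood at 8.92 to 9.82 FPKM in the other 3.

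Stress lists beside these were divided. Heat shock chaperones were 11 higher and 6 lower of 17, at a median of 0.16 (0.21 in the K700E line, 0.058 in the WT line), with means of 58.5 ± 8.75 against 38.6 ± 11.04 FPKM for the cochaperone gene DNAJA1, 42.6 ± 9.105 against 31.5 ± 8.98 FPKM for AHSA1 and 18.8 ± 3.91 against 43.3 ± 28.1 FPKM for FKBP4. Endoplasmic reticulum stress genes were 10 higher and 14 lower of 24. SEL1L, an adaptor of protein degradation, was at 9.37, 8.03, 5.68 and 9.595 FPKM against 14.1, 25.7, 15.6 and 19.7 FPKM without overlap. HSPA5, the main chaperone there, had means of 63.8 ± 12.6 against 88.4 ± 27.4 FPKM and DNAJC3 of 4.35 ± 0.865 against 9.004 ± 3.65 FPKM. Oxidative stress genes were 13 higher and 13 lower, with means of 131 ± 20.2 against 95.2 ± 12.5 FPKM for the superoxide dismutase gene SOD1 and 10.5 ± 6.39 against 17.4 ± 4.64 FPKM for SRXN1.

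Tetracyclines are also known to dampen inflammation and to block matrix metalloproteinases. Of 14 such genes tested, 6 were higher and 8 lower. MMP17, a membrane-bound metalloproteinase, was at 25.4, 20.1, 73.8 and 30.8 FPKM with doxycycline and 9.16, 14.03, 16.3 and 12.6 FPKM without, with no overlap, but at -0.66 log2 units in place of 1.33 with reference transcripts alone. TIMP1, a metalloproteinase inhibitor, had means of 214 ± 54.8 against 307 ± 88.05 FPKM, and TNFAIP3, an inhibitor of NF-kappa B signalling, of 2.95 ± 2.25 against 5.11 ± 1.79 FPKM. Of 13 interferon response genes 6 were higher and 7 lower. IFITM1, an interferon-inducible membrane protein, was at 1620.1, 1953, 659 and 890.1 FPKM with doxycycline and 456, 429, 388 and 885 FPKM without. The sides overlapped, and the log2 difference was 2.01 in the K700E line and 0.39 in the WT line, where replicate 2 was nearly the same on both sides. The antiviral gene IFIT3 had means of 0.226 ± 0.41 against 4.33 ± 6.06 FPKM and the transcription factor STAT2 of 13.02 ± 4.16 against 21.9 ± 8.64 FPKM.

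Immediate early genes were 8 higher and 8 lower of 16, with means of 108 ± 24.5 against 166 ± 45.04 FPKM for the transcription factor MYC and 5.46 ± 2.88 against 9.604 ± 1.78 FPKM for KLF6. BTG1, an antiproliferative gene, was above 0 only in the untreated K700E replicate 1 and WT replicate 2, at 7.101 and 11.7 FPKM. Autophagy and lysosome genes were 12 higher and 21 lower of 33. LAMP1, a lysosomal membrane protein, was at 11.6, 7.29, 11.6 and 9.43 FPKM against 17.5, 22.03, 26.1 and 14.7 FPKM without overlap. ATP6V1H, of the proton pump, had means of 8.903 ± 4.06 against 20.7 ± 9.42 FPKM. NPC2, a cholesterol carrier, was at 33.7, 11.05, 21.9 and 26.7 FPKM with doxycycline and 16.5, 7.26, 8.83 and 0 FPKM without. Cytosolic ribosomal proteins were 51 higher and 28 lower of 79, at a median of 0.072, with 0.10 in the K700E line and -0.00057 in the WT line. RPL10 had means of 680.0 ± 145 against 1326 ± 742 FPKM and RPL27A of 97.4 ± 31.2 against 489 ± 466 FPKM, and both had the other sign with reference transcripts alone.

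Subunits of SF3A and SF3B and factors of the branch point, the machinery around the transgene's product, were 13 higher and 10 lower of 23, at a median of 0.093. PUF60, which helps U2AF at the 3′ splice site, was at 84.5, 89.4, 67.8 and 46.3 FPKM with doxycycline and 52.7, 44.5, 53.3 and 35.4 FPKM without. The helicase gene DDX46 had means of 39.01 ± 20.4 against 23.4 ± 16.99 FPKM and SF3A1 of 39.8 ± 6.18 against 63.7 ± 28.6 FPKM, each with the other sign from reference transcripts alone.

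Most markers of other cell types were low or listed at 0, with GP1BB, KRT8, KRT18 and VIM among the exceptions. Of 5 myeloid markers tested, 4 were lower with doxycycline, with a median of -1.30 in the K700E line and 0 in the WT line, led by the lysosomal protein CD68 with means of 12.2 ± 11.6 against 24.95 ± 7.88 FPKM and LYZ with 15.8 ± 10.2 against 18.6 ± 5.71 FPKM, while AZU1 was above 0 in 1 untreated library. Of 5 megakaryocyte markers 4 were higher, each with overlap. THBS1 was at 6.25, 5.05, 11.3 and 1.23 FPKM with doxycycline and 4.22, 0, 6.23 and 0.192 FPKM without. TUBB1 was at 0, 5.06, 2.54 and 2.23 FPKM with doxycycline and 0, 6.08, 0 and 0.0121 FPKM without, and CD9 at 3.47, 3.73, 4.19 and 28.1 FPKM with doxycycline and 7.999, 0, 4.29 and 12.7 FPKM without. GP1BB, a platelet glycoprotein gene whose locus a read-through gene shares, was chosen after its values were seen. It was at 215, 262, 335 and 0 FPKM with doxycycline and at 0, 329, 362 and 0 FPKM without, a difference with an adjusted p of 0.964 in limma. CD3D, a T cell receptor subunit, was at 3.86, 10.4, 21.6 and 7.31 FPKM with doxycycline and 58.1, 22.2, 22.3 and 37.2 FPKM without, with no overlap, while PTPRC had means of 10.8 ± 3.05 against 15.4 ± 10.7 FPKM. CD79A was at 6.13, 0, 0 and 0.965 FPKM with doxycycline and 3.44, 0, 0 and 0 FPKM without. Of 9 stromal and epithelial markers 8 were lower, with a median of -0.77 in the K700E line and -0.28 in the WT line. The keratin genes KRT18 and KRT8, which K562 expresses, had means of 236 ± 44.5 against 347 ± 138 and 289 ± 37.3 against 436 ± 178 FPKM, and the vimentin gene VIM of 115 ± 41.7 against 179 ± 61.4 FPKM. The log2 difference of VIM was -1.24 in the K700E line and 0.0029 in the WT line, and that of KRT8 -0.90 and -0.10. In these bulk libraries fewer cells of a type and less RNA per cell cannot be told apart, and the part of other cells in any result was not tested.

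Splicing was compared through the share of each transcript in its gene. Of 24403 transcripts of 7555 genes with a mean share of 5% to 95%, 0 passed an adjusted p of 0.05 in limma (0%), and 796 (3.26%) had an unadjusted p under 0.05. The smallest adjusted p was 0.243. It belonged to an assembled form of DHX30, an RNA helicase, which held 0% of its gene in the 4 treated libraries and 81.6%, 72.9%, 100% and 100% without doxycycline, and to a form of CPSF7, of the cleavage complex of mRNA 3′ ends, with 0% in the treated libraries and 86.7%, 88.2%, 100% and 100% in the others. Forms of WIZ and SNX12 went the other way, each with 100% of its gene in the 4 treated libraries, against 12.8% in 1 untreated library for WIZ and 0% in the rest. Values of 0 are common in these lists: 22067 of the 24403 transcripts (90.4%) were listed at 0 in at least 1 library. A full switch between the sides was rare. It was seen for 4 transcripts that held their whole gene in every treated library and were at 0 in every untreated one, and for 3 the reverse. In all, 20 transcripts were above 0 in every treated library and at 0 in every untreated one, and 24 the reverse.

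A test of whether doxycycline acted differently in the 2 lines called 3 of 11335 genes (0.0265%) in limma. All 3 are short RNAs with values that are all or none. SNAR-A14, one of a family of near-identical small RNAs of 121 nt, was listed at 0 in both K700E libraries with doxycycline and stood at 5247 and 4266 FPKM in the WT libraries with it, against 1691, 2857, 2051 and 2986 FPKM without. MIR4461, of 74 nt, was above 0 in the K700E libraries with doxycycline alone, at 62689 and 65856 FPKM, and the vault RNA VTRNA1-3, of 88 nt, in the WT libraries with doxycycline alone, at 572728 and 31926 FPKM. No gene was called among the 11262 with a transcript of 300 nt or more, where 476 had an unadjusted p under 0.05.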

How the data were processed

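Ribosomal RNA-depleted RNA of 8 K562 libraries, 4 with and 4 without doxycycline, was used. The deposited transcript lists give FPKM. The submitters' processing notes name Cufflinks, TopHat, CASAVA and the hg19 build. Which versions and settings were run is not given in the sources used here. A gene's level was the summed FPKM of its reference transcripts and of assembled spliced transcripts that share its introns, scaled by median-ratio factors of 0.979 to 1.03 from 7570 genes. Depth was known only as the deposited coverage per FPKM.

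The 11335 genes of 23445 with a mean of 1 FPKM or more were tested as log2(FPKM + 0.5) in limma 3.58.1 (R 4.3.3; treatment plus line, trend, Benjamini-Hochberg, threshold 0.05). Single values were tested by exact permutation. Python 3.11.15 with scipy 1.17.1, pandas 2.3.3 and matplotlib 3.10.9 made tables and figures. A simulated doxycycline comparison of 11335 genes showed what could be called. Of 40 genes moved by 1 log2 unit 2 were called (5%), and of 40 moved by 2 units 20 were called (50%). Moves of 3, 4 and 6 log2 units were called in 67.5%, 82.5% and 97.5% of 40 genes each. Among 11135 genes not moved, 7 were called (0.0629%). Most moves of 1 log2 unit were thus missed in the simulation.

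The members and gene lists were chosen with earlier results of these data known. Named were SF3B1, up to 12 genes a direction with the smallest p (above 0 in all libraries, mean of 5 FPKM, 300 nt, same sign in both lines, no overlap), up to 3 members a list with the smallest p, and some regulators. The genes named for a level of 50 FPKM or more and the setting that takes numbered loci at 0 as missing were chosen after seeing the data. Some genes so named are not reported here. Replicate numbers match the lane numbers in the file names. Deviations of same-numbered libraries from their group means had correlations of -0.039 to 0.096 over 8760 genes, so the results are given without a replicate block. Coverage per FPKM was lower in replicate 2 than in replicate 1 of every group, at 3.29 to 3.94 against 3.85 to 4.77. Alternatives changed scaling, pseudocount, filters, transcripts, covariates, moderation and libraries left out.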

Additional observations from a re-analysis of the deposited data

Results flagged for a closer look

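In 19 of 274 groups of 4 libraries, 1 library lay farther from the other 3 than 4 draws of one kind usually do, a mark that chance gives to about 1 in 20 groups. Among the genes that led the comparison, TUBB3 was at 9.29 FPKM in untreated K700E replicate 1, above 0.0143 to 0.0795 FPKM in the other 3, and FAM89A at 25.6 FPKM in untreated WT replicate 2, above 20.8 to 21.2 FPKM. ATP5MJ was at 13.4 FPKM in treated K700E replicate 1, below 36.4 to 40.4 FPKM, and the serine gene SHMT2 at 76.5 FPKM in treated WT replicate 2, below 122 to 127 FPKM. Of the tRNA synthetases, CARS2 was at 43.2 FPKM in untreated WT replicate 2, PARS2 at 11.1 FPKM in treated WT replicate 2 and AARS1 at 118 FPKM in untreated WT replicate 1, the lowest of its side. The metal sensor MTF1 was at 24.9 FPKM in untreated K700E replicate 1, the ferritin gene FTL at 3030.0 FPKM in untreated WT replicate 1 and the hexokinase gene HK2 at 3.62 FPKM in treated K700E replicate 1.

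Of the division and survival genes, NUSAP1 was at 65.3 FPKM in untreated K700E replicate 2, the histone gene H4C9 at 45.4 FPKM in treated K700E replicate 2 with the other 3 treated libraries at 0, and BCL2L2 at 0 FPKM in that same library against 8.92 to 9.82 FPKM. DDIT3, which encodes CHOP, was at 56.04 FPKM in untreated WT replicate 1 and listed at 0 elsewhere. The interferon gene IFIT3 was at 0.841 FPKM in treated K700E replicate 1, where the other treated libraries were at or under 0.0379 FPKM. Markers of other blood cells stood apart in single libraries as well: AZU1 at 9.55 FPKM and CD79A at 3.44 FPKM in untreated K700E replicate 1, TUBB1 at 6.08 FPKM in untreated K700E replicate 2 and CD9 at 28.1 FPKM in treated WT replicate 2. These values fell in 7 of the 8 libraries, at most 4 of them in one, untreated K700E replicate 1.

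The response to doxycycline differed between the lines for 3 short RNAs by limma's interaction term, with adjusted p of 1.77e-05 for SNAR-A14, 5.82e-05 for MIR4461 and 0.0116 for VTRNA1-3, in 2 of 2 libraries each. Each was listed at 0 in both treated libraries of 1 line. VTRNA1-3, at 572728 and 31926 FPKM in the treated WT libraries, lost its call under several of the alternatives below. The smallest adjusted p among genes of 300 nt or more was 0.204, for ARPC4-TTLL3, and whether these differences come from RNA or from the estimation of very short transcripts was not tested.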

How the results depend on the processing

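No gene was called for doxycycline under any alternative in limma except with 4 group means, which called 3 (MIR4461, SNAR-A14 and VTRNA1-3), and with the K700E line alone, which called 1 (MIR4461). Without each library in turn the count was 0 to 0, and 442 to 613 genes reached 0.05 before adjustment. Outside these 2 settings the smallest adjusted p over the alternatives was 0.0531 in limma, for H4C9 without K700E_induced replicate 2. The interaction called 16 genes with no filter on low values. It called 0 with only genes above 0 in all libraries and 0 with genes of 300 nt or more. VTRNA1-3 was not called with no filter on low values, with reference transcripts alone or with no intensity trend. Leaving out a library left 1 in its group. VTRNA1-3 was then called only where the library left out was a treated WT one. Transcript shares gave 0 calls in every alternative run, 0 to 0 without each library.

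The replicate block, fitted because both groups carry numbers 1 and 2, gave 0 calls for doxycycline, 3 for the interaction and 0 for shares, and changed no call or sign. SF3B1 had a log2 difference of 0.065 in the K700E line alone and 0.061 in the libraries numbered 2 alone, and -0.14 to 0.079 without each library. Plus-strand RNA of the mitochondrial genome had -0.18 to 0.11 without each library.

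With reference transcripts alone, 26 named genes changed sign and 109 did not, and the cause was not tested. Their log2 differences were -0.16 for SDHAF2, 0.37 for PITRM1, 0.037 for EPRS1, -0.023 for AARS1, 0.27 for FKBP4, -0.83 for SLC30A9, 3.76 for SLC25A37, -0.24 for CPOX, 0.068 for ZFPM1, -0.27 for MYB, -0.16 for PLK3, -1.12 for NUSAP1, -0.92 for PCNA, -0.66 for MMP17, 0.26 for STAT2, 0.48 for RPL10, 0.37 for RPL27A, -1.87 for DDX46, 0.68 for SF3A1, 0.22 for PTPRC, 0.17 for VIM, 0.13 for LONP1, -0.47 for TUFM, -1.40 for TAL1, -0.060 for ALAS2 and -0.93 for HNRNPA2B1. With the K700E line alone they were 0.012 for PSAT1, -0.12 for TUBB1, 0.061 for HSPD1 and 0.22 for GATA1, and with the WT line alone 0.19 for ACAT2, 2.02 for MT2A, 0.036 for SRXN1, 0.11 for TIMP1, 0.45 for LYZ, 0.0029 for VIM, -0.20 for TUFM and -0.18 for TAL1. Libraries numbered 1 alone gave -0.068 for PFKFB3, -0.19 for HBQ1, -0.56 for CD9, 0.16 for HSPD1, 0.085 for GATA1 and -0.039 for ALAS2, and libraries numbered 2 alone gave 0.53 for PMVK, -0.010 for SLC30A9, 0.16 for PTPRC and -0.010 for ATF4. Upper quartile scaling gave 0.0068 for HSPD1. Without each library in turn the values ran over -0.21 to 0.92 for HBQ1, -0.093 to 1.54 for CD9, -0.76 to 0.12 for PTPRC, -0.29 to 0.059 for TRIB3, -0.14 to 0.15 for HSPD1 and -0.16 to 0.075 for GATA1.

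The spread between libraries gave a median standard error of 0.531 log2 units, and of 0.257 at 50 FPKM or more, which limits the differences that 4 libraries a side can show. The part of depth in that spread was not tested. Read counts are not used here, so no counting interval is given, and a gene listed at 0 may be one whose level was not estimated.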

Other observations

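Besides MTIF3 and CISD3, 3 genes were listed at 0 in all 4 untreated libraries and above 0 in all 4 treated ones. CIRBP-AS1, antisense to the cold-inducible RNA-binding protein gene, was at 6.19, 9.18, 4.53 and 0.431 FPKM with doxycycline. C10orf88B (LOC399815 in the files) was at 1.51, 2.67, 1.903 and 3.09 FPKM, and AGPAT4-IT1, an intronic transcript, at 0.00204, 3.99, 2.38 and 2.398 FPKM. Beside KRT79 and NIPSNAP3B, PTGDR2, a prostaglandin D2 receptor, was listed at 0 in all 4 treated libraries and stood at 8.93, 0.688, 3.16 and 2.09 FPKM in the untreated ones. None passed the test, with an adjusted p of 0.954 in limma for each of these 4 genes, which were chosen for this pattern.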
